A study of Mus musculus with 333 samples.

Results

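Ribosomal protein genes encode the proteins that, with ribosomal RNA, build the cytosolic ribosome. They were taken here as the rows of the count table whose symbol was RPL, RPS or RPLP followed by digits, with an optional final A, X or L. This rule found 78 of the 22074 genes, 48 of the large subunit (the P proteins of its stalk among them) and 30 of the small subunit. S6 kinase genes and pseudogene rows were left out. Rpl13 and Rps4l were not analysed here. The rule did not reach 7 further genes of the cytosolic ribosome or its close paralogues, among them Rpsa, Rps3a1, Fau, Rpl36al, Rpl22l1 and Rpl7l1, which were described beside the 78.

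The large subunit forms peptide bonds and threads the new chain through an exit tunnel, while the small subunit holds the mRNA and reads its codons. A lateral stalk on the large subunit, built on Rplp0 with dimers of Rplp1 and Rplp2, recruits the elongation factors. Many ribosomal protein mRNAs start with a run of pyrimidines, the terminal oligopyrimidine tract, through which the mTOR kinase and the RNA-binding protein Larp1 set their translation. Neurons, glia and vascular cells all need ribosomes. The families are known for many processed pseudogene copies in mammalian genomes and for a few paralogues with restricted expression.

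The study profiled single cells of wildtype mouse brain that were enriched by flow sorting, with the gate not given in the sources used here, and then captured on a Fluidigm C1 device. Cells came from visual cortex, hippocampus and thalamus at embryonic day 18.5 (E18.5), postnatal day 12 (P12) and in adults whose age the labels do not state, with 5 mice named per stage and no treatment. The labels do not say which animal a cell came from, so every group of cells is 1 sample, and no p-value or standard error is given. The range over the cells of a group, and the range of each value when each cell is left out in turn, stand in its place. By title there were 71 cells of E18.5 visual cortex, 51 E18.5 cells titled mThal (their source field reads visual cortex), 60 of P12 visual cortex, 68 of P12 hippocampus, 21 of P12 thalamus and 62 of adult visual cortex. The submitters' labels named 7 types, which were neurons, astrocytes, microglia, endothelial cells, oligodendrocyte precursors (OPCs), newly formed oligodendrocytes and myelinating oligodendrocytes. All groups are wildtype and carry no allele, transgene or agent.

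Start-site sequences of 58 of the 78 genes were found in RefSeq (GRCm38.p6), 48 of them with 1 start. The sequences below run from 40 bases before the start to 15 bases after it, on the strand of the gene, and were chosen because their genes recur in the results. Capitals mark the longest pyrimidine run of at least 8 bases that lay within 50 bases before and 15 bases after the start. Rpl4 (chr9:64173347-64173401, plus strand) lines the exit tunnel and was the member read in most cells at full depth. Rpl15 (chr14:18270972-18271026, minus strand) and Rps18 (chr17:33955651-33955705, minus strand) varied widely between groups. Rpl38 (chr11:114668540-114668594, plus strand) stood apart in endothelial cells. Rplp2 (chr7:141447611-141447665, plus strand) belongs to the stalk, and Rps27l (chr9:66946046-66946100, plus strand, the first of 2 listed starts) is a paralogue. Rpl10 (chrX:74270776-74270830, plus strand) is shown as a gene whose window holds no such run.
Rpl4: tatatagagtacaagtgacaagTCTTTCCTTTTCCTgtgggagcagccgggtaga
Rpl15: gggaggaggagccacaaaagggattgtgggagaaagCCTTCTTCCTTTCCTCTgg
Rps18: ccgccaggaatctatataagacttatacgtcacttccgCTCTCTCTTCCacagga
Rpl38: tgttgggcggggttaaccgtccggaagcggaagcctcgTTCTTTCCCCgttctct
Rplp2: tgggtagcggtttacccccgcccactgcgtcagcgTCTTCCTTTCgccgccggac
Rps27l: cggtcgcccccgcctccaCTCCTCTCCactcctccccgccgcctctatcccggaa
Rpl10: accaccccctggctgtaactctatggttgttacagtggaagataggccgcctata

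The pyrimidine run was 14 bases long in Rpl4, 17 in Rpl15, 11 in Rps18, 10 in Rpl38, 10 in Rplp2 and 9 in Rps27l. Relative to the listed start its first base lay at −18, −4, −2, −2, −5 and −22 in that order. The runs of Rpl4 and Rps27l ended before that start, and a run in this window is not shown to open the mRNA. Such a run, sought on the gene's strand only, was present in 35 of the 58 genes (60.3%) and in 29.7% of the 26967 other genes of the same table. CTTTCC, which can lie inside such a run, was found in 22.4% of the 58 genes against 3.65% of the others in the same window. Over 250 bases before to 50 after the start and on both strands, CCGGAAG, the core of ETS factor sites, was found in 41.4% against 9.86%. In that window, also on both strands, AAGATGGCG was found in 5.17% against 1.63%. GGGCGG, the core of Sp1 sites, was found on either strand in 58.6% against 38.2%. TATAA on the gene's strand was found in 24.1% of the 58 genes against 20% of the others in the same window. A gene with several listed starts counted if any of them matched. These are matches of letters and not measured sites. All 78 genes were placed in the GENCODE annotation of GRCm38, on 19 chromosomes, with 4 of them on X (Rpl10, Rpl36a, Rpl39 and Rps4x).

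The 333 libraries held 374574 to 4849603 counted reads per cell, with a median of 1311110, and 1011 to 6649 genes detected, with a median of 3001. These are reads without molecular identifiers, so counting intervals cover counting error only. A pair of adult microglia libraries was nearly identical (Pearson r 0.994 across genes, against 0.613 for the next pair) and was averaged into 1, leaving 332 cells. Of these, 272 had a named type. Summed markers of the own type had medians between 7087 CPM (reads per 1000000 counted) in neurons and 82428 CPM in myelinating oligodendrocytes, with Tubb3 and Lhfpl3 not among the rows. Another class's markers reached 25% of that class's own median in 25 of the named cells. Under 10% of the median of their own type's markers stood 7 cells, 3 of them E18.5 astrocytes titled mThal (cells 8, 19 and 35), and 2 adult endothelial cells. Adult endothelial cell 52 had 1.13 CPM of endothelial and 66463 CPM of pericyte and smooth muscle markers, and cell 38 17.3 CPM of endothelial markers. Results on these groups are also given without these cells, a choice made after seeing the data. The cell IDs of each set lay in ranges that no other set entered, P12 hippocampus and P12 visual cortex included. The ranges of the E18.5 cells titled mThal, E18.5 visual cortex, P12 thalamus and most of P12 hippocampus followed directly on one another in that order. Differences by age or region therefore cannot be told apart from whatever these ranges stand for.

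The 78 genes took between 0.034% and 6.28% of the reads of a cell, with a median of 1.38%, and between 7 and 75 of them had a read, with a median of 68. Rpl10l and Rpl39l, paralogues known from testis, had no read in any cell; with 65 E18.5 cortical neurons pooled, 0 reads allows up to 0.0432 CPM (exact Poisson, 95%). Rpl3l, the striated muscle paralogue of Rpl3, was read in 5 of 332 cells. Each of the other 75 genes was read in 48.2% of cells or more, the least being Rps27l, in 160 cells. Rpl4 was read in 92.2% of cells and Rpl41, the shortest ribosomal protein, in 91.9%. The 10 members with most reads held 37.2% of all reads on the 78.

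Per kb of transcript, the highest mean levels over the 15 groups of 5 or more cells were 559 CPM per kb for Rps14, 529 for Rpl3, 519 for Rpl4, 514 for Rpl41 and 504 for Rps18. The lowest among the 76 expressed members were 7.5 CPM per kb for Rpl3l, 13.1 for Rps15a, 13.2 for Rpl24 and 25.6 for Rps20. These depend on which annotated transcript gives the length (5179 bases for Rps15a, the longest, and 3706 for Rps20, against a median of 817.5 over the 78). Not divided by length, the mean was 799 CPM for Rpl4, 714 for Rpl3, 595 for Rplp0 and 513 for Rps3, and at the low end 8.95 for Rpl24, 10.3 for Rpl3l and 20.3 for Rpl23a. Pseudogene copies with at least 95% identity over at least 80% of the coding sequence were found for 71 of the 78 genes, with a median of 4.5 and a maximum of 56 for Rpl21. A read that fits several copies may be lost or misplaced, and how the authors treated such reads is not given in the sources used here. Over the 76 expressed members, Spearman's rho between the number of copies and mean CPM per kb was −0.11, a description across genes that share libraries.

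**Figure D1:**
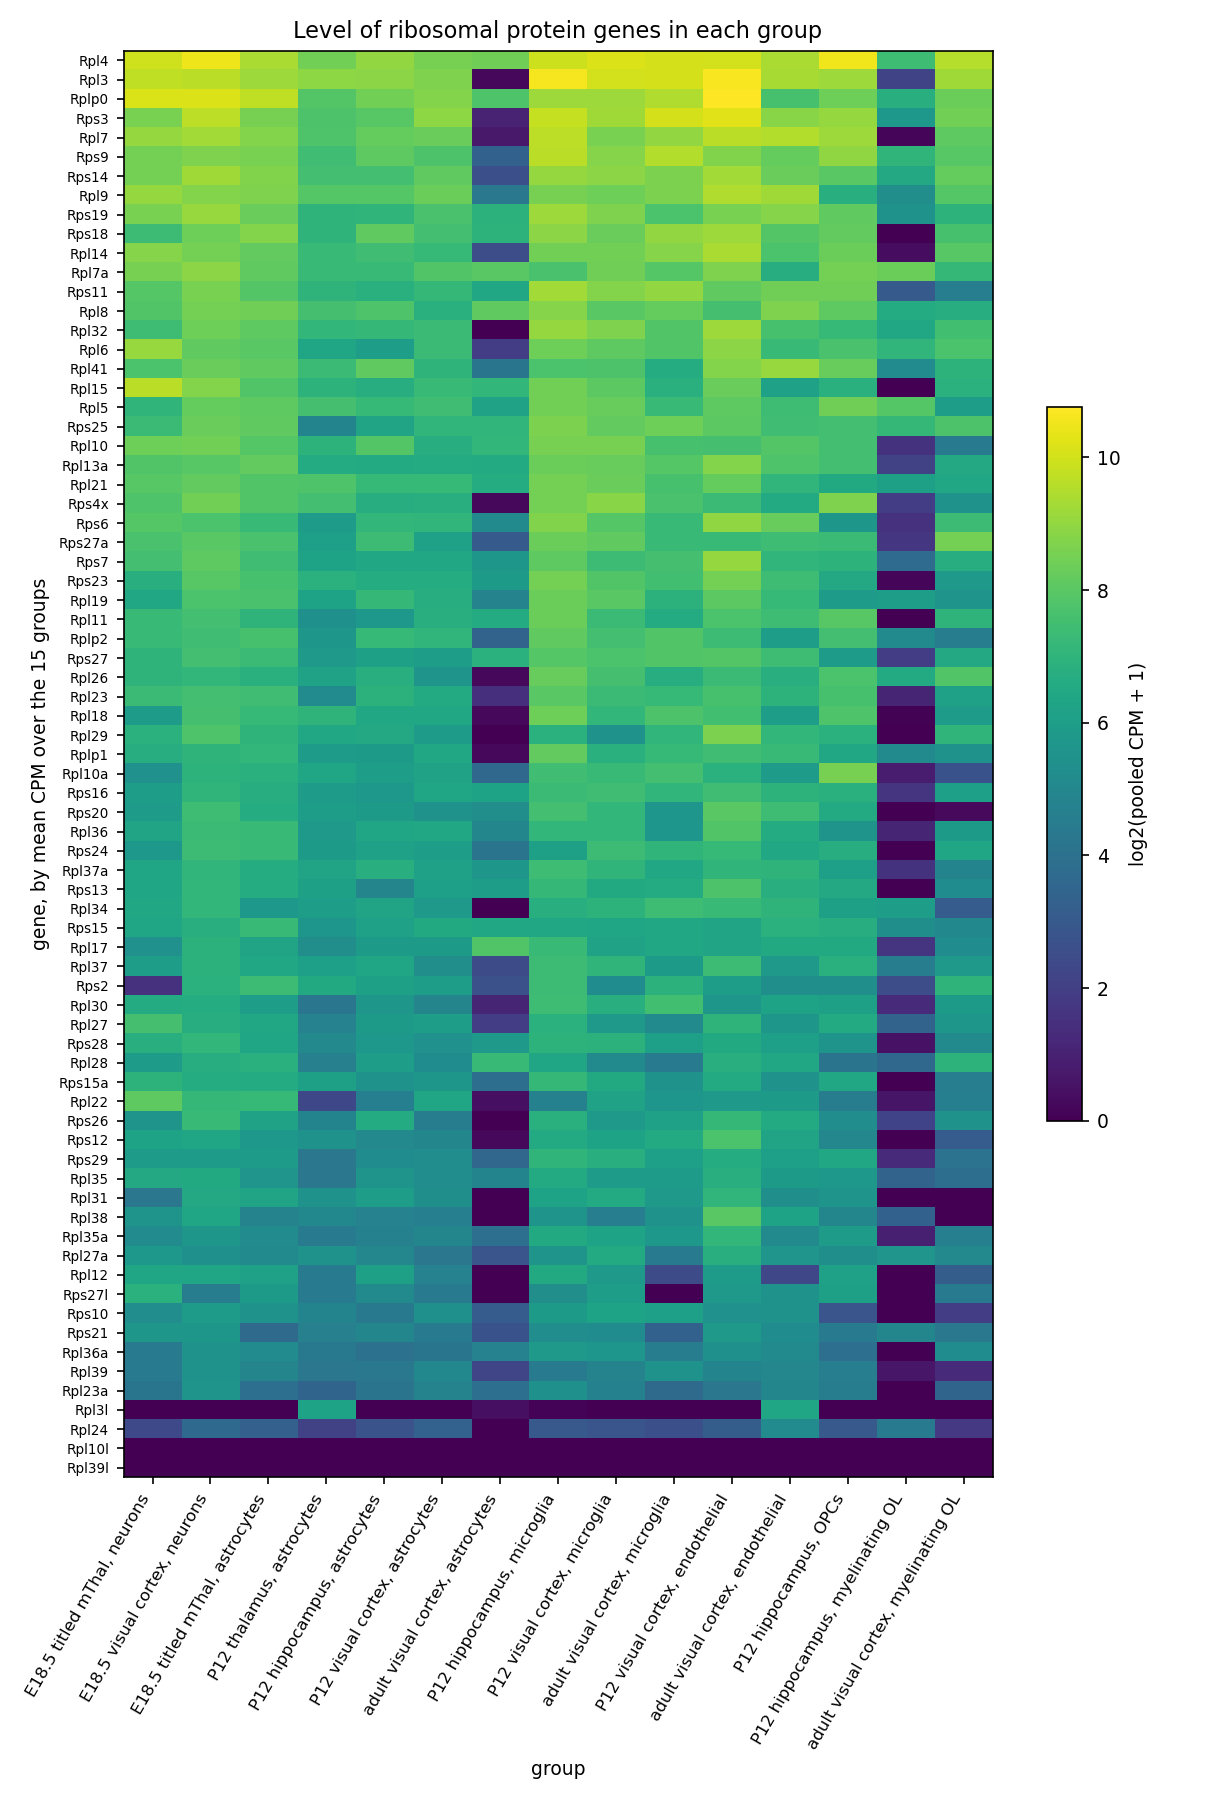
Level of 74 of the 78 genes (rows, ordered by mean CPM) in each of the 15 groups of 5 or more cells (columns), as log2 of pooled CPM plus 1. The dark columns are the adult astrocytes and the P12 hippocampal myelinating oligodendrocytes, and the dark rows at the foot are Rpl10l and Rpl39l, with no read in any cell.

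Among the 15 groups of 5 or more cells, endothelial cells and microglia of P12 and cortical neurons of E18.5 gave the largest part of their reads to ribosomal protein genes, and myelinating oligodendrocytes and the astrocytes of P12 and adult brain the smallest. In the 7 endothelial cells of P12 visual cortex the share per cell was 1.46% at the lowest, 2.52% at the median and 3.35% at the highest. Pooled over those cells it was 2.31% (exact Clopper-Pearson 95% interval 2.30 to 2.32). In the 15 myelinating oligodendrocytes of P12 hippocampus it was 0.034%, 0.245% and 0.619%, and pooled 0.25% (0.248 to 0.251). No cell of the first group lay within the range of the second, and the pooled shares differed 9.27-fold.

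In neurons the share was of middle to high size. The 65 E18.5 cortical neurons ranged from 0.440% over a median of 1.88% to 3.26%, and pooled gave 1.96%. The 5 neurons titled mThal had 0.310%, 0.764%, 1.61%, 1.75% and 2.01%. The cell at 0.310% had 28 members with a read and 2197 genes detected, the fewest of both among the 5, and lay below every cortical neuron, while the other 4 lay inside the cortical range.

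In astrocytes the pooled share was 1.45% in the E18.5 cells titled mThal (17 cells, 0.144% to 6.24%), 0.868% in P12 hippocampus (19 cells, 0.247% to 2.31%) and 0.856% in P12 visual cortex (21 cells, 0.205% to 2.21%). It was 0.697% in P12 thalamus (16 cells, 0.261% to 2.01%) and 0.374% in adult visual cortex (10 cells, 0.062% to 1.17%). The medians over cells were 0.827%, 0.716%, 0.568%, 0.565% and 0.347% in that order. The ranges of all 5 groups overlapped. One E18.5 astrocyte titled mThal, cell 19, moved its pooled share from 1.45% to 1.11% when left out, and without all 3 cells low in astrocyte markers it was 0.920%.

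The 2 microglia of E18.5 titled mThal had shares of 3.85% and 6.24%, above every P12 cortical endothelial cell, and enter no ranking. In microglia of the larger groups the pooled share was 2.16% in P12 hippocampus (8 cells, 1.15% to 3.76%), 1.71% in P12 visual cortex (18 cells, 0.716% to 3.28%) and 1.55% in adult visual cortex (10 cells, 0.489% to 4.85%). The adult value was 1.22% without adult cell 1, which had 4.85%. Endothelial cells of adult visual cortex gave 1.31% (23 cells, 0.623% to 2.72%), and 1.36% without the 2 low in endothelial markers. The 6 adult myelinating oligodendrocytes gave 0.828% (0.740% to 1.11%), all above the 15 of P12 hippocampus. The 6 OPCs of P12 hippocampus gave 1.34% (0.706% to 1.76%). Among the 15 groups, ranked by pooled share, by the mean over cells and by the median over cells, P12 hippocampal myelinating oligodendrocytes were lowest, adult astrocytes second lowest, P12 thalamic astrocytes next and P12 cortical endothelial cells highest. The ranks of the other groups changed with the way of averaging, except that of P12 cortical microglia.

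**Figure D2:**
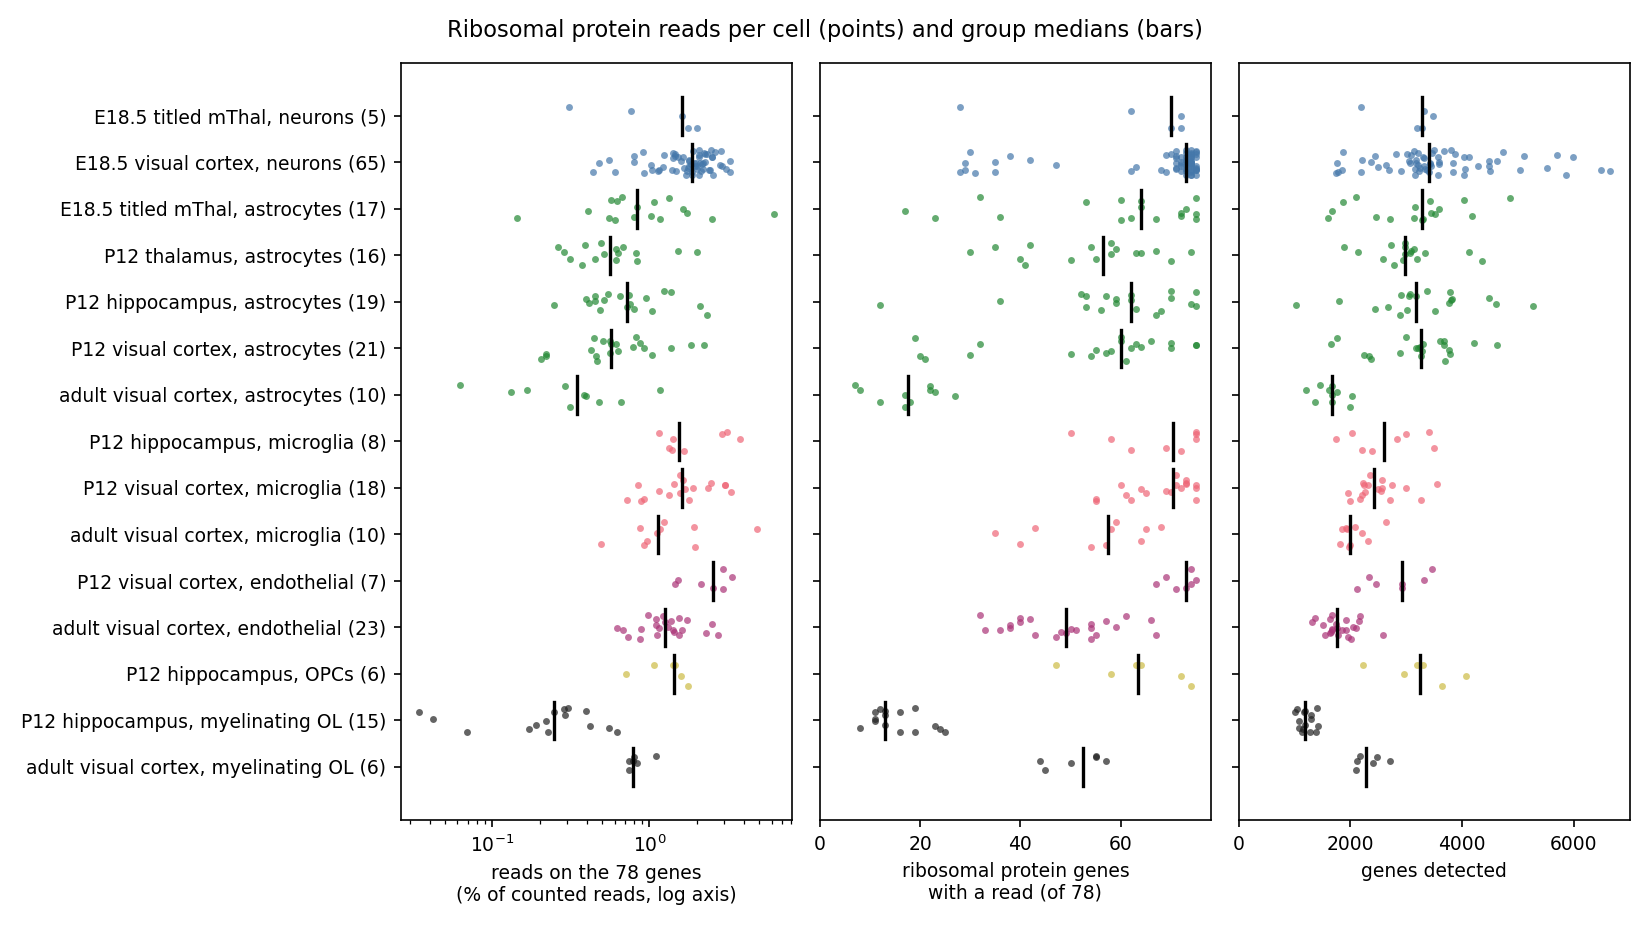
Each point is 1 cell and each bar a group median, in the 15 groups of 5 or more cells; panels show reads on the 78 genes as a percent of counted reads (log axis), members with a read, and genes detected. The P12 hippocampal myelinating oligodendrocytes lie between 0.034% and 0.619% with 8 to 25 members, and the P12 cortical endothelial cells between 1.46% and 3.35% with 67 to 75.

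Genes detected per cell did not order the groups the way the ribosomal protein share did. In P12 visual cortex, a median of 2427.5 genes was detected in microglia, 2920 in endothelial cells and 3266 in astrocytes, while the median number of ribosomal protein genes with a read was 70.5, 73 and 60. Among cells with 1500 to 3000 genes detected, the median share was 1.6% in 16 microglia, 2.52% in 5 endothelial cells and 0.563% in 7 astrocytes, with 69.5, 71 and 30 members. In the same window of adult visual cortex it was 1.14% in 10 microglia, 1.21% in 21 endothelial cells, 0.790% in 6 myelinating oligodendrocytes and 0.383% in 7 astrocytes. Their members with a read had medians of 57.5, 50, 52.5 and 22.

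Within groups, cells with more genes detected had more members with a read. Spearman's rho over cells, a description of cells that differ in depth, ran from 0.25 in 10 adult microglia to 0.93 in 16 P12 thalamic astrocytes over the 10 named groups of 10 or more cells. For the share of reads against genes detected it ran from −0.28 in adult endothelial cells to 0.74 in P12 thalamic astrocytes. In E18.5 cortical neurons, the 14 cells with 1500 to 3000 genes had a median of 36.5 members and a share of 0.922%, against 73 and 1.88% over all 65. Over the 243 named cells with at least 700000 reads, the median was 65 members before and 63 after thinning to that depth.

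The 2 groups with fewest members differed in depth. P12 hippocampal myelinating oligodendrocytes had 8 to 25 members with a read (median 13) at a median of 1182 genes and 4120108 reads. Adult astrocytes had 7 to 27 members (median 17.5) at 1666 genes and 594826 reads. Thinned to 700000 reads, the medians were 10 over all 15 oligodendrocytes and 23 over the 3 astrocytes that were deep enough. In the middle cell of these groups the most read member alone held 46.4% and 39.7% of the member reads, against 8.89% to 15.6% in the other 13 groups. The 15 oligodendrocytes and 1 P12 hippocampal astrocyte had cell IDs in a lower run of their own, and that astrocyte had 12 members, 1023 genes and a share of 0.247%. The part of RNA quality, of the sort or of this run in these low values was not tested.

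**Figure D3:**
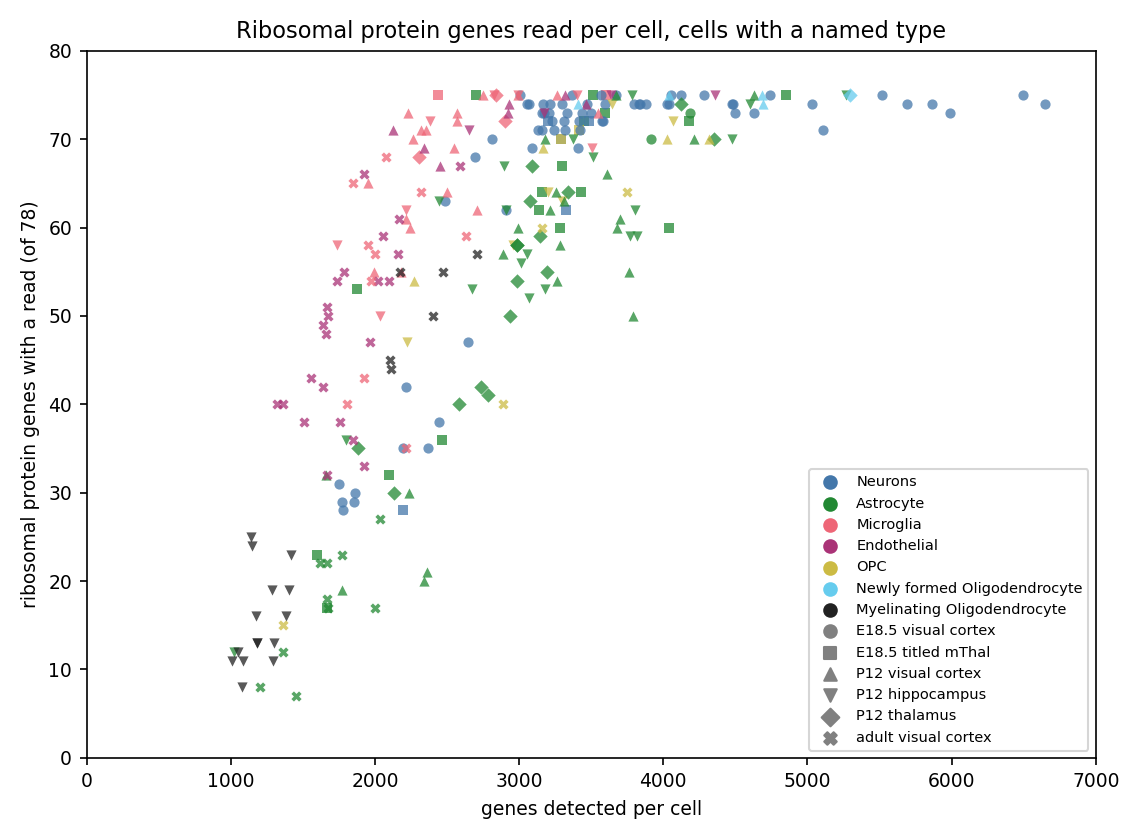
Members with a read against genes detected in each of the 272 cells with a named type; colour gives the type and shape the set. Microglia and endothelial cells lie at the upper left edge, astrocytes to their right, and P12 hippocampal myelinating oligodendrocytes with adult astrocytes at the lower left, between 7 and 27 members.

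Both subunits were highest in the same group and lowest in the same group. Summed over the 48 large subunit genes, the pooled level was 14617 CPM in P12 cortical endothelial cells, 12222 CPM in E18.5 cortical neurons, 5281 CPM in P12 cortical astrocytes and 1923 CPM in P12 hippocampal myelinating oligodendrocytes. For the 30 small subunit genes it was 8521, 7372, 3277 and 573 CPM. The ratio of small to large subunit reads lay between 0.505 and 0.703 in 13 of the 15 groups. It was 0.45 in the 5 mThal neurons and 0.30 in P12 hippocampal myelinating oligodendrocytes.

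Of the 73 members that reached 50 CPM in some group, 26 had their highest pooled level in P12 cortical endothelial cells and 23 in P12 hippocampal microglia. Another 5 were highest in mThal neurons and 5 in P12 cortical microglia. Of these 73, 67 had their lowest level in P12 hippocampal myelinating oligodendrocytes or adult astrocytes. The widest ranges of log2 level over the 15 groups were 10.44 for Rpl3, 9.66 for Rpl15, 9.53 for Rpl7, 9.26 for Rps3 and 9.20 for Rpl32, and the low end of each lay in one of those 2 groups. The narrowest were 2.18 for Rpl8, 2.22 for Rpl7a, 2.24 for Rps15, 2.43 for Rpl21 and 2.48 for Rpl5.

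Without those 2 groups, a choice made after seeing the data, the median range over members was 2.68 on the log2 scale. The widest were then 8.01 for Rpl38, 7.71 for Rps20, 7.10 for Rpl31 and 6.88 for Rps27l, and among the narrowest were 1.63 for Rps24, 1.72 for Rps16, 1.75 for Rps14 and 1.89 for Rpl7. Rpl7 therefore moved from among the widest to among the narrowest. Rpl38, which is known for its part in translating Hox mRNAs in the mouse embryo, had 53, 277 and 445 CPM (lowest, median and highest cell) in P12 cortical endothelial cells. It was not read in any of 6 adult myelinating oligodendrocytes or 10 adult astrocytes, where 0 reads allows up to 0.403 and 0.625 CPM (exact Poisson, 95%).

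Comparisons between pooled groups used a log2 ratio of CPM with 1 CPM added. Genes under 10 CPM in both groups were taken as not measured, and a gene was called higher or lower at a 2-fold difference. Groups are single samples, and a few cells can carry a gene. Between 59.4% and 89.5% of measured genes passed 2-fold in the 15 comparisons, so each count of members is given beside that background.

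In endothelial cells of visual cortex few members were higher in adults, and the part that was lower was near that of all genes. Of 76 measured members, 26 were lower in 23 adult than in 7 P12 cells and 3 were higher. Among all measured genes 32.5% were lower and 43.4% higher (75.9% in all). The member median was −0.65 on the log2 scale (−0.74 to −0.55 with each cell left out), and the median of all measured genes 0.39. Without the 2 adult cells low in endothelial markers there were 27 lower and 3 higher. Rplp0, the base of the stalk, had 1225, 1643 and 2208 CPM in the lowest, median and highest P12 cell and 0, 10.6 and 1502 CPM in the adult cells. All P12 cells read it, against 14 of 23 adult cells, and the ranges overlapped only through the highest adult cells. Pooled, Rplp0 was 194 against 1726 CPM, a log2 ratio of −3.15 (−3.98 to −2.99).

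Rpl12, the stalk's neighbour at the factor-binding site, was 3.85 against 60.1 CPM (−3.66), read in 6 of 23 adult and 6 of 7 P12 endothelial cells. Rpl15 was 69.6 against 316 CPM (−2.17). Of the 4 genes listed for the stalk, Rplp0, Rplp1, Rplp2 and its neighbour Rpl12, 3 were lower in adults (median −2.28), with Rplp1 at −0.21. Rpl24 was the reverse, 35.3 against 8.12 CPM (1.99, range 1.34 to 2.25), and Rpl8 was 405 against 190 CPM (1.09). Rpl3l was at 80.1 CPM in adults, every read of it in 1 cell. Genes detected had medians of 1759 in adult and 2920 in P12 cells, and immediate early and stress genes summed to 31820 against 9823 CPM, with 12 of 15 higher in adults. Their part in the difference was not tested.

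In microglia of visual cortex, of 74 measured members, 2 were higher and 15 lower in 10 adult than in 18 P12 cells, beside 29.3% higher and 46.9% lower of all measured genes. The member median was −0.34 and that of all genes −0.71. Without adult cell 1 the count was 2 higher and 29 lower and the median −0.75. Scaling by trimmed means of log ratios (TMM) in place of the read total gave 3 higher and 9 lower, and median-of-ratios scaling 4 and 7.

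Rps27l, a paralogue of Rps27 induced by p53, had no read in any of the 10 adult microglia. Among P12 microglia it had 0, 58 and 211 CPM in the lowest, median and highest cell and was read in 12 of 18, so it was at least 265-fold lower in adults (3 reads over the group as floor). Rpl12 was 4.62 against 56.2 CPM (−3.35), Rpl27a 20.2 against 93.5 CPM (−2.15) and Rps21 9.24 against 36.7 CPM (−1.88). Rps2, at the mRNA entry, was 118 against 36 CPM (1.68, range 1.03 to 2.32), and Rpl29 135 against 43.4 CPM (1.61, range 1.27 to 2.43). Adult values of both were carried by some cells only, 6 of 10 for Rps2 and 4 of 10 for Rpl29.

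In astrocytes of visual cortex, 46 of 74 measured members were lower and 3 higher in 10 adult than in 21 P12 cells, against 58.7% lower and 24% higher (82.7% in all) of all measured genes. The member median of −1.85 (−2.71 to −1.54) lay above that of all genes, −2.36. Among cells with 1500 to 3000 genes detected (7 against 7) the split was 35 lower and 19 higher. Rps3, which lines the mRNA entry channel, had 0, 246 and 1436 CPM in the lowest, median and highest P12 cell and 0, 0 and 6.84 CPM in adults. Pooled, Rps3 was 482 against 1.02 CPM (−7.90), and Rpl7 313 against 0.678 CPM (−7.55). Rpl32 was read in 18 of 21 P12 astrocytes and 0 of 10 adult ones, at least 319-fold lower. Rpl3 had 1 read in the adult group against 412 CPM.

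The 3 members higher in adult astrocytes were read in few of the 10 cells. Of the adult reads of Rpl8, 100% came from 1 cell, and of those of Rpl28 97.5%. Rpl17, an exit tunnel protein, was 229 against 56.7 CPM (1.99, range 0.55 to 2.60), read in 4 adult cells with 67.3% of its reads from 1. Rpl4 was 344 against 376 CPM in the pooled groups, yet 99.7% of its adult reads came from 1 cell and the adult median was 0.534 CPM. Median astrocyte markers per cell were 46095 CPM in adult and 50384 CPM in P12 cells, while 12 housekeeping genes summed to 4312 against 11224 CPM.

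Astrocytes of P12 thalamus were compared with the E18.5 astrocytes titled mThal. Of 75 measured members, 33 were lower and 1 higher at P12, beside 36.9% lower and 31% higher of all measured genes, and the member median was −0.94 against −0.19. Without E18.5 cell 19 the count was 19 lower and 3 higher and the median −0.66, and without all 3 cells low in astrocyte markers 15 lower and 3 higher and −0.45. All 4 genes of the stalk list, Rpl12 included, were lower, with a median of −1.79. Rpl22, an RNA-binding protein of the large subunit, had 0, 0 and 17.5 CPM in the lowest, median and highest P12 cell and 0, 4.88 and 939 CPM at E18.5. Pooled it was 4.08 against 149 CPM (−4.88, range −5.25 to −4.20).

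Rps25, needed for initiation at some viral and cellular mRNAs, was 28.2 against 278 CPM (−3.25), and Rpl23 35.8 against 175 CPM (−2.25). For Rps25 the P12 cells had 0, 17 and 133 CPM and the E18.5 cells 0, 55.3 and 1338 CPM, so the groups overlapped below 133 CPM. The 1 higher member was Rpl3l, with all 1380 reads in 1 P12 cell. Median OPC markers were 713 CPM in the E18.5 astrocytes and 31.5 CPM at P12, and astrocyte markers 16296 and 44546 CPM.

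Myelinating oligodendrocytes of adult visual cortex were set against those of P12 hippocampus, which differ in age, region and run of cell IDs together. Of 66 measured members, 49 were higher and 4 lower in the adult cells, beside 56.9% and 29.2% (86.1% in all) of all measured genes, and the median was 3.31 (3.22 to 3.62) against 2.07. Without P12 cell 12, low in the markers of its type, there were 51 higher and 4 lower. TMM scaling shifted this comparison by −1.31 on the log2 scale and gave 40 higher and 10 lower, and median-of-ratios scaling by −1.48 with 39 and 13. Rpl7 had 8.08, 72.9 and 1119 CPM in the lowest, median and highest adult cell and 0, 0 and 0.557 CPM at P12, with no overlap. Rpl14 had 4.83, 204 and 816 CPM against 0, 0 and 1.86 CPM, and Rps18 41, 177 and 309 CPM against 1 read in 15 cells. Rpl29 was at least 2389-fold higher.

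The members lower in adult myelinating oligodendrocytes were Rpl34 (−2.87), Rpl24 (−2.61), Rpl5 (−1.92) and Rpl7a (−1.15). At P12 their reads sat in a few cells, 4 of 15 for Rpl34, 3 for Rpl24 and 9 each for Rpl5 and Rpl7a. Rpl5 carries 5S rRNA into the large subunit together with Rpl11, and its partner went the other way, with 128 CPM in adult and 0 in P12 cells. Markers of the type were abundant in both groups, with medians of 89814 and 62674 CPM.

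Within P12 visual cortex, microglia and endothelial cells both had a higher pooled level of ribosomal protein genes than the 21 astrocytes, which serve both comparisons. In 18 microglia 35 of 74 measured members were higher and 0 lower, beside 27.9% and 48% of all measured genes. The medians were 0.92 for members (0.85 to 1.19) and −0.80 for all genes. Median-of-ratios scaling gave 53 higher and TMM 52, each with 0 lower. Cells with 1500 to 3000 genes detected gave 53 higher and 3 lower. Rps4x, the X-linked S4 protein, had 0, 285 and 1482 CPM in microglia and 0, 4.71 and 818 CPM in astrocytes, pooled 464 against 108 CPM (2.09, range 1.85 to 2.44). Rpl27a was at 2.29 and Rpl26 at 2.02. Rps27a, made as a fusion with ubiquitin, was 283 against 70 CPM. Rps2 was at −0.81 and Rpl29 at −0.48.

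In the 7 endothelial cells 49 of 74 measured members were higher than in astrocytes and 0 lower, beside 26.4% and 53.5% (79.9% in all) of all measured genes, with medians of 1.26 (1.15 to 1.45) and −1.46. Rpl38 had 53, 277 and 445 CPM in the lowest, median and highest endothelial cell and 0, 8.59 and 166 CPM in astrocytes. Pooled, Rpl38 was 256 against 23.8 CPM (3.37, range 3.18 to 3.58). Rps7 was 530 against 85.5 CPM (2.62), with 99.1 CPM in the lowest endothelial cell. Rps12 was at 2.78 and Rpl29 at 2.66, so Rpl29 was high in endothelial cells and below astrocytes in microglia. Rpl23a (−0.52), Rpl22 (−0.51) and Rps15 (−0.28) lay at the other end. No endothelial cell had markers of another class at 25% of their median, against 5 of the 21 astrocytes, and without these cells the counts were 57 higher and 0 lower.

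In adult visual cortex 3 comparisons share groups, endothelial cells in 2 of them and astrocytes in 2. Between endothelial cells and microglia the counts were even, with 13 of 75 measured members higher and 13 lower, beside 50.4% and 33% (83.4% in all) of all measured genes. The median of −0.02 (−0.13 to 0.25) was 0.04 with TMM scaling, 0.25 without adult microglia cell 1 and 0.04 without the 2 cells low in endothelial markers, and all genes had 1.06. Single members differed in both directions. Rpl41 had 0, 464 and 1378 CPM in the lowest, median and highest endothelial cell and 0, 83.1 and 319 CPM in microglia (2.45, range 2.22 to 2.81). Rplp0 was 194 against 718 CPM (−1.88), Rplp2 61.8 against 226 CPM (−1.86) and Rpl18 64.7 against 217 CPM (−1.73).

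Against the adult astrocytes, 56 of 75 measured members were higher in endothelial cells and 2 lower, beside 52.4% and 34.6% (87.1% in all) of all measured genes, with medians of 2.40 and 1.45. Without the 2 cells low in endothelial markers there were 57 higher and 2 lower. In the 6 myelinating oligodendrocytes 33 of 67 were higher and 6 lower than in astrocytes, beside 42.4% and 47.1% (89.5% in all), with medians of 0.90 and −0.48. Without astrocyte cell 30 the member median of this oligodendrocyte comparison was 1.66. Rpl3, near the peptidyl transferase centre, had 148, 638 and 989 CPM in the lowest, median and highest oligodendrocyte and at most 1.43 CPM in an astrocyte. Rpl26 had 91.0, 247 and 407 CPM against 1 read in 10 astrocytes. Rps20 went the other way, with 2 reads in 6 oligodendrocytes, though 98.7% of its astrocyte reads came from 1 cell.

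In P12 hippocampus, 62 of 75 measured members were lower and 3 higher in myelinating oligodendrocytes than in 19 astrocytes, beside 72.4% and 16.9% (89.3% in all) of all measured genes. Without oligodendrocyte cell 12, low in the markers of its type, there were 62 lower and 2 higher. The member median of −4.05 was close to that of all genes, −4.14. TMM scaling shifted it by 1.39 and gave 49 lower and 10 higher, and median-of-ratios scaling by 2.07 with 44 and 14. Rps18 had 0, 245 and 1225 CPM in the astrocytes and 1 read in the 15 oligodendrocytes. Rpl7 was 0.110 against 295 CPM and Rpl14 0.292 against 172 CPM. Rpl7a was higher, 320 against 149 CPM (1.10, range 0.56 to 1.37), read in 9 of 15 cells. Rpl6 (1.11) and Rpl24 (1.64) were higher too, but each log2 ratio was below 0 when the cell with most reads was left out.

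The 6 OPCs were compared with the same hippocampal astrocytes. Of 74 measured members 17 were higher and 6 lower, beside 31.8% and 46.1% of all measured genes, with medians of 0.38 (0.17 to 0.65) and −0.57. TMM scaling gave 13 higher and 7 lower. Rpl11 had 0, 297 and 496 CPM in the lowest, median and highest OPC and 0, 25.2 and 228 CPM in astrocytes (2.25, range 1.97 to 2.61), and its partner Rpl5 was 347 against 146 CPM (1.24). Rps4x was 402 against 102 CPM (1.96). Rpl10a was at 2.56, with 83.7% of the OPC reads from 1 cell. Rps6, the substrate of S6 kinase, was 51.2 against 137 CPM (−1.40), Rps26 at −1.32, Rps10 at −1.51 and Rpl28 at −1.85. Pericyte and smooth muscle markers had a median of 1770 CPM in these OPCs and 11.6 CPM in the astrocytes. That list shares Cspg4 with the OPC markers, so OPCs add to its sum, and the part of Cspg4 in it was not separated.

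Between regions, few members were 2-fold apart in P12 astrocytes. Hippocampus against visual cortex gave 7 higher and 5 lower of 74 members, beside 26.7% and 32.6% (59.4% in all) of all measured genes, with a median of 0.01 (−0.11 to 0.25). Both scalings gave 8 and 2, means of single cells 11 and 3, and without hippocampal cell 40 the count was 4 and 3. Rps26 was 96.1 against 22.4 CPM (2.05, range 1.39 to 2.42), with 0, 50.4 and 532 CPM in the hippocampal and 0, 4.94 and 85.2 CPM in the cortical cells. Rpl22 was at −1.68 and Rpl6 at −1.35.

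Thalamus against visual cortex, with the same cortical cells, gave 2 higher and 13 lower of 75, beside 28.1% and 35.1%, and a median of −0.27 (−0.53 to −0.12). Without thalamic cell 17 there were 2 higher and 20 lower, and means of single cells gave 5 and 12. Rpl22 was 4.08 against 79.8 CPM (−3.99) and Rps25 28.2 against 135 CPM (−2.21). Rpl22, Rps25 and Rpl23 were also among the lowest in the comparison with E18.5, which shares the thalamic cells. Among cells with 1500 to 3000 genes detected, hippocampus against visual cortex gave 40 higher and 13 lower (5 against 7 cells) and thalamus against visual cortex 23 and 25 (9 against 7 cells).

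The 5 E18.5 neurons titled mThal were compared with the 65 cortical ones. Of 75 measured members, 18 were lower and 1 higher, beside 54.7% and 20.8% of all measured genes, with medians of −0.58 and −1.49. Without mThal cell 27 there were 30 lower and 3 higher, TMM gave 12 lower and 5 higher, and median-of-ratios scaling 8 and 5. Rps2 had a read in 1 of 5 mThal cells, at 8.70 CPM, and 0, 74.8 and 2340 CPM in the lowest, median and highest cortical neuron, in 57 of 65 (−5.33, range −6.89 to −4.97). Rpl31 was 17.9 against 89.9 CPM (−2.26), Rps26 46.3 against 150 CPM (−1.68) and Rpl18 59 against 189 CPM (−1.66). The higher member, Rps27l at 2.33, took 99.6% of its mThal reads from 1 cell and was at −3.83 without it.

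**Figure D4:**
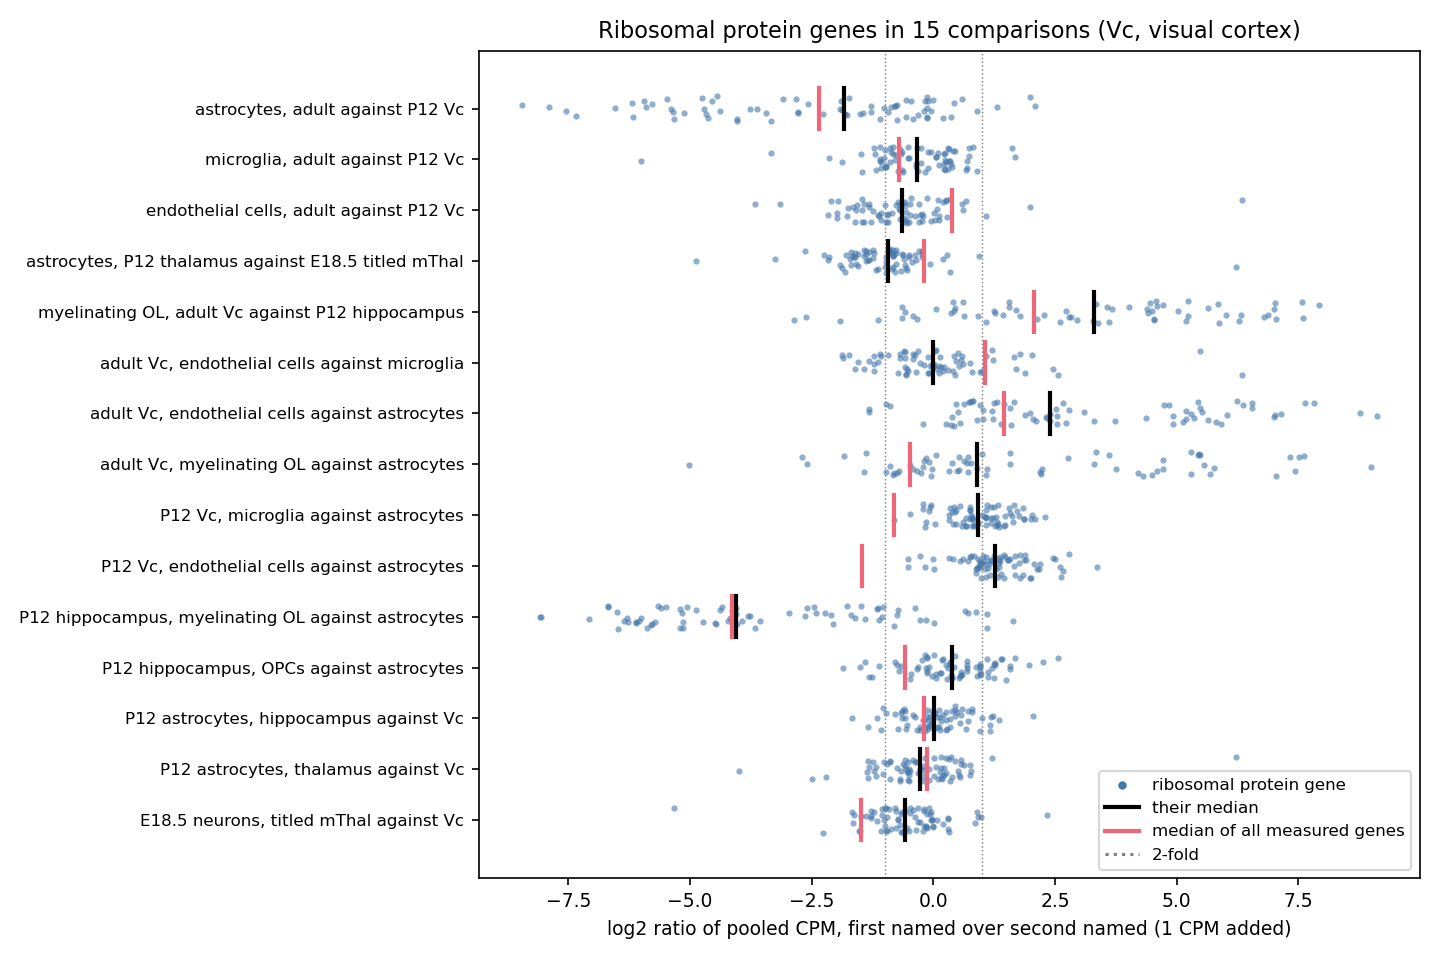
Each point is 1 measured member in 1 of the 15 comparisons, on a log2 scale of pooled CPM with 1 CPM added; black bars are member medians, red bars medians of all measured genes, and dotted lines mark 2-fold. The black bar lies right of the red one in most rows and left of it in endothelial cells by age (−0.65 against 0.39), thalamic astrocytes by age, thalamic against cortical astrocytes, and adult endothelial cells against microglia.

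Members of the same part of the ribosome did not always go together. The exit tunnel genes Rpl4, Rpl17, Rpl19, Rpl22, Rpl23a, Rpl26, Rpl31, Rpl35 and Rpl39 summed to 2301 CPM in E18.5 cortical neurons, 1881 CPM in P12 endothelial cells, 798 CPM in P12 cortical astrocytes and 339 CPM in P12 hippocampal myelinating oligodendrocytes. In P12 endothelial cells against astrocytes 5 of these 9 were higher and 0 lower, with Rpl4 at 1029 against 376 CPM (1.45) and Rpl22 at −0.51. Of the mRNA channel genes Rps2, Rps3, Rps14, Rps26 and Rps28, 4 of 5 were higher in that comparison, beside 26.4% of all measured genes. The stalk list, Rpl12 included, summed to 2126 CPM in P12 endothelial cells and 409 CPM in adult ones, but to 937 and 1095 CPM in P12 and adult microglia. Single genes weigh on such sums. In P12 endothelial cells Rplp0 held most of the stalk sum and Rpl4 most of the exit tunnel sum.

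Of the paralogues, Rps27l lay at 20.7 to 117 CPM in 12 groups and at 0 in adult microglia, adult astrocytes and P12 hippocampal myelinating oligodendrocytes. Its parent Rps27 was read in every group, from 2.85 CPM in those oligodendrocytes to 243 CPM in P12 hippocampal microglia. Rpl3l reached 74.1 CPM in P12 thalamic astrocytes and 80.1 CPM in adult endothelial cells, each from 1 cell (798 and 1857 CPM there), and was at 0 in 11 of 15 groups. Rpl3 was read in 286 of 332 cells. Levels of a parent and a paralogue may be mixed where reads fit both.

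The 7 genes of the cytosolic ribosome or its paralogues outside the rule summed to 54.8 CPM in P12 hippocampal myelinating oligodendrocytes, 613 CPM in adult astrocytes, 1088 CPM in adult endothelial cells and 1815 CPM in P12 hippocampal microglia. Rpsa, of the small subunit, followed the endothelial ages, 133 against 463 CPM (−1.79), while Fau, whose product carries S30, was 196 against 166 CPM (0.24). In adult against P12 astrocytes 2 of the 6 measured were higher and 2 lower (median 0.75), with Rpsa at −1.91 and Rps3a1 at 0.83. Of all measured genes 24% were higher and 58.7% lower there.

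Other genes of translation were counted from lists. The 10 elongation factor genes and their partners summed to 671 CPM in adult astrocytes, 3356 CPM in P12 cortical astrocytes, 8066 CPM in P12 endothelial cells and 10878 CPM in mThal neurons. Of 9 measured, 5 were higher and 0 lower in P12 endothelial cells than in astrocytes, among them Eef1a1, which brings tRNA to the ribosome, at 4821 against 1826 CPM (1.40). In adult against P12 astrocytes 7 were lower and 0 higher, with Eef1a1 at 133 against 1826 CPM (−3.77) and Eef2, the translocase, at −4.01. The 28 initiation factors were split in P12 endothelial cells against astrocytes, 5 higher and 7 lower (median −0.07). Of all measured genes 26.4% were higher and 53.5% lower in that comparison, and 24% and 58.7% in adult against P12 astrocytes.

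The mitochondrial ribosome has its own set of proteins, also encoded in the nucleus. Its 76 genes summed to between 1278 and 3212 CPM in the 15 groups, lowest in P12 hippocampal myelinating oligodendrocytes and highest in P12 thalamic astrocytes. In P12 cortical microglia against astrocytes 8 of 69 measured were higher and 39 lower (median −1.23), beside 27.9% and 48% of all measured genes. There, 35 members were higher and 0 lower. In endothelial cells against astrocytes it was 18 higher and 33 lower of 68 (median −0.91), beside 26.4% higher and 53.5% lower of all measured genes. The 24 ribosome biogenesis genes gave 2 higher and 10 lower of 19 in the same comparison (median −1.65), and the 13 RNA polymerase I genes 2 and 4 of 8. Of 15 genes that carry growth signals to translation, mTOR and Larp1 among them, 4 of 13 were higher and 6 lower. In this endothelial comparison the lower part of the mitochondrial and biogenesis lists was near that of all genes.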

How the data were processed

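PolyA cDNA of single cells was amplified on a Fluidigm C1 device before Nextera XT tagmentation, per the labels' protocols. Raw read counts per gene and cell were deposited by the authors in 1 table, with STAR, HTSeq 0.6.0 and mm10 named in the submitters' processing notes. For the annotation and for reads that fit several places, the processing is not given in the sources used here. Members and lists were chosen with earlier results of these data known. Groups were a set by title and a labelled type, and cells without a type or labelled "purple" entered no comparison. Counts were summed over the cells of a group and scaled to CPM on the table's total, and 4850 genes had no read. Ratios had 1 CPM added, needed 10 CPM in either group and were called at 2-fold. Folds against 0 used a floor of 3 reads over the group. Named genes were, per comparison, the 4 highest and 4 lowest measured members by log2 ratio, the 5 of highest and lowest mean level, the 5 of widest and narrowest range among members at 50 CPM or more in a group, and the genes of the lists, with a few others chosen after their values were seen. Alternatives were TMM (edgeR 4.0.16) and median-of-ratios scaling (DESeq2 1.42.0), used for factors only, other added values, no minimum level, means of cells, leaving out each cell, mixed cells, and a window of genes detected. Pseudogene copies were found with BLAST 2.17.0 among 13399 GENCODE pseudogene transcripts. Counts, sums and medians cover all members, of which some are not reported here by name. Python 3.11.15 and R 4.3.3 were used. No doublet caller was run, and cells carrying 25% of another class's marker median were left out as an alternative, as were cells under 10% of their own type's marker median. Depth ran from 374574 to 4849603 reads per cell, so a gene without a read in a cell is not shown to be absent.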

Additional observations from a re-analysis of the deposited data

Results flagged for a closer look

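In 12 groups of 4 to 10 cells the highest and lowest cell were set against the others for the share of reads and the number of members read, and 5 of 48 ends stood apart by Dixon's 95% criterion, which chance gives in about 1 in 20 groups. For the share these were adult microglia cell 1, at 4.85% with the nearest at 1.95%, adult myelinating oligodendrocyte cell 14, at 1.11% with the nearest at 0.836%, and the newly formed oligodendrocyte cell 40 of P12 visual cortex, at 0.783% with the nearest at 1.47%. For members with a read they were the mThal neuron cell 43, with 28 against 62 in the nearest cell, and the OPC cell 21 of P12 visual cortex, with 54 against 69.

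Pseudogene rows of the table, which entered no comparison, also held reads. Rpl14-ps1 was read in 217 cells, Rpl34-ps1 in 144, Rps15a-ps6 in 93, Rps19-ps3 in 22, Rpl31-ps12 in 20 and Rps15a-ps4 in 19. Each came to at most 0.046% of the reads on the 78 genes.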

How the results depend on the processing

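No paired analysis was possible because the labels tie no cell to an animal. The pooled shares of the highest and lowest group differed 9.27-fold, and 8.89-fold by means over cells, 10.3-fold by medians, 9.50-fold without cells carrying another class's markers, 9.50-fold with the genes outside the rule, 9.85-fold without the most read member, 7.02-fold without the 20 most read other genes, 9.69-fold without cells low in their own type's markers, and 8.58- to 10.01-fold with each cell left out. Among cells with 1500 to 3000 genes detected, where P12 hippocampal myelinating oligodendrocytes have none, P12 cortical endothelial cells stood 5.42-fold above adult astrocytes. Counts of members 2-fold apart stayed within 1.5 times in all 15 comparisons with 0.1 CPM added, TMM scaling, means of single cells or no minimum level. Median-of-ratios scaling gave 11 (from 17) in adult against P12 microglia and 53 (from 35) in P12 microglia against astrocytes. The window of genes detected gave 56 in the latter, 53 (from 12) in hippocampal and 48 (from 15) in thalamic against cortical astrocytes, and could not be run in 4 comparisons. Without cells low in their own type's markers, thalamic astrocytes by age gave 18 (from 34). With each cell left out the counts ran from 12 to 31 in microglia by age, 22 to 47 in thalamic astrocytes by age, 7 to 14 in hippocampal against cortical astrocytes and 18 to 33 in E18.5 neurons. The causes of these shifts were not tested. Pooled scalings differed by over 0.1 on the log2 scale in most comparisons, and up to 2.07 in P12 hippocampal myelinating oligodendrocytes.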

Other observations

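Cells labelled "purple", a term the labels do not explain, gave 0.918%, 1.13% and 1.86% of their reads to the 78 genes at the lowest, median and highest of 6 adult cells, and 1.76% in the 1 cell of P12 visual cortex. In the adult ones Rps27l was at 126 CPM. Cells without a type had shares of 0.216% at the lowest, 2.30% at the median and 6.28% at the highest over 25 E18.5 cells titled mThal, and 0.759%, 1.57% and 3.46% over 16 cells of P12 hippocampus.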
